A study of Mus musculus with 6 samples.

Results

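Wnt ligands are secreted, lipid-modified proteins that bind Frizzled receptors on the surface of responding cells. The ligands described here belong to the class best known for the beta-catenin branch, in which a Wnt joins a Frizzled to the co-receptor Lrp5 or Lrp6, beta-catenin escapes destruction, and the stabilised protein switches on target genes with TCF/LEF factors. In the early mouse embryo these ligands start gastrulation, keep the tail end growing, and pattern the midbrain and the dorsal neural tube. The class was taken as Wnt1, Wnt2, Wnt2b, Wnt3, Wnt3a, Wnt8a, Wnt8b, Wnt10a and Wnt10b, and all 9 were found among the 18193 genes that a probe set with a single gene symbol measured. Their 11 probe sets were picked by symbol in the array's annotation. Where a gene had several, the one brightest on average across the 6 arrays stood for it.

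RNA of whole mouse embryos at embryonic day 8.5 was hybridised to 6 single-colour Affymetrix arrays. The single knockout group (Fz2+/+; Fz7-/-) and the double knockout group (Fz2-/-; Fz7-/-) had 3 arrays each, and the genes written Fz2 and Fz7 in the labels are Fzd2 and Fzd7. Both groups lacked Fzd7, both were on a C57BL6/129 mixed background and of mixed gender, and wild-type embryos were not analysed here. The labels give neither the number of embryos behind a sample nor their litters, so the tests weigh differences only against the scatter of these arrays, part of which may be technical. The comparison asks what the loss of Fzd2, a receptor for such ligands, adds to the loss of Fzd7.

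Fzd2 read 9.86, 9.99 and 10.01 (RMA values on the log2 scale, as are all levels here) in the single knockout and 7.30, 7.69 and 7.63 in the double knockout, so the arrays followed their labels. Fzd2 was also the only gene that passed the test, at a limma adjusted p under 0.05 over all genes, which is 0.0055% of the genes tested. That call was lost without double knockout replicate 3 and without each single knockout array in turn. Double knockout replicate 1 stood apart. Its correlation with any other array across genes was at most 0.990, while the other 5 arrays correlated at 0.997 to 0.998 among themselves. In it 479 genes, or 2.63%, were more than 1 log2 unit off the other 5 arrays' mean. Differences between the groups are therefore given with and without this array. Markers of the embryo's own regions had mean levels over the 6 arrays of 6.06 to 6.60 for the primitive streak and tail bud list and 6.70 to 7.22 for the midbrain and isthmus list.

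None of the 9 ligand genes passed the test, with all arrays or without double knockout replicate 1, and the smallest adjusted p among them was 0.872 by limma, or 0.701 without that array. By value 4 were higher and 5 lower in the double knockout, where 8407 of all 18193 genes were higher and 9786 lower. The class had a median log2 difference of -0.016 against -0.0093 over all genes. The class was not uniform around that median. Wnt8a was higher by value in every double knockout array, Wnt1 and Wnt8b were far off in double knockout replicate 1, and the remaining ligands stayed within 0.52 log2 units of the single knockout mean in each double knockout array. Groups did not overlap for 2 of 9 ligands, Wnt8a and Wnt3, both higher, where 11.4% of all genes did not overlap and 4.85% did so with the double knockout higher. In whole-embryo RNA, fewer cells of a type and less RNA per cell cannot be told apart.

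**Figure D1:**
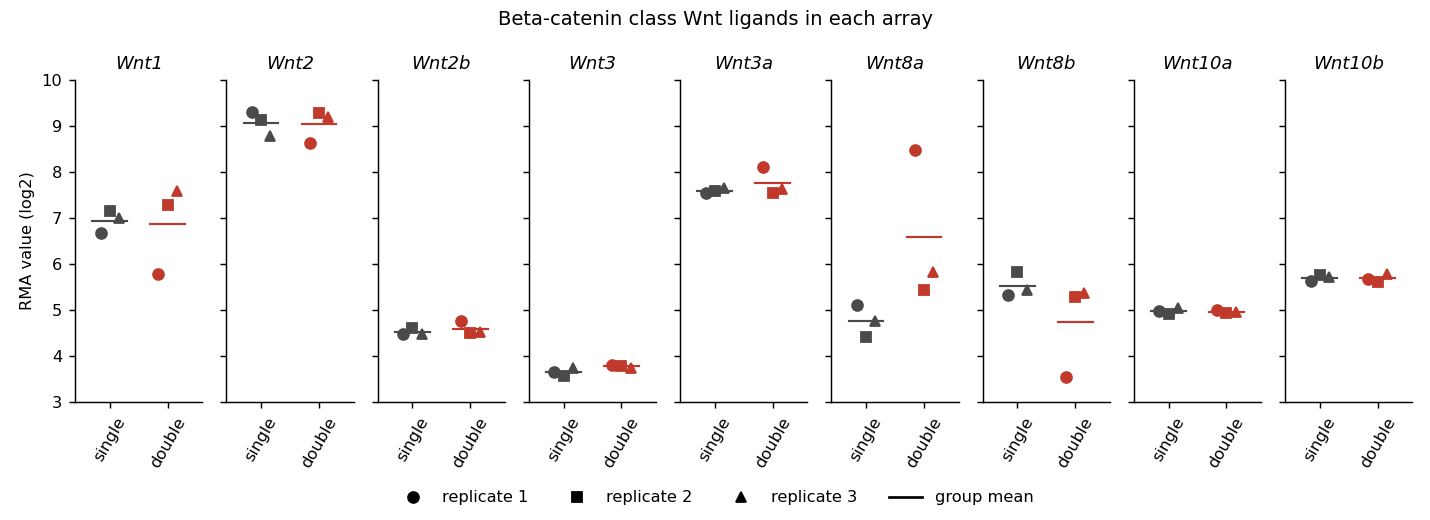
RMA value (log2) of the 9 ligand genes in each array, single knockout in grey and double knockout in red, with the replicate number as the symbol and the group mean as a line. Wnt8a is higher in all 3 double knockout arrays, and replicate 1 lies far from the others for Wnt1, Wnt8a and Wnt8b; levels of different probe sets are not comparable with each other.

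Wnt8a (probe set 1422228_at), a ligand of the posterior epiblast and primitive streak that acts in tail-end growth, had the largest absolute difference of the 9 ligands. It read 5.11, 4.41 and 4.77 in single knockout replicates 1 to 3. In the double knockout it read 8.47, 5.44 and 5.83. All 3 double knockout arrays lay above the highest single knockout array, and double knockout replicate 1 lay 2.64 above the next highest. The group means were 4.77 ± 0.35 and 6.58 ± 1.65 (SD, n = 3 each). The difference was 1.82 on the log2 scale (SE 0.77, 95% interval -0.034 to 3.66), which is 3.52-fold in RMA values. It did not pass the test (limma adjusted p = 0.872, unadjusted p = 0.0532), and the exact two-sided permutation test gave 0.1, the lowest p possible with 3 arrays a group. Only 8 of the 18193 genes had a larger absolute difference.

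Without double knockout replicate 1 the 2 remaining arrays were still 0.67 and 1.07 above the single knockout mean. The difference was then 0.87 (SE 0.22, 95% interval 0.34 to 1.39), or 1.83-fold in RMA values, with a limma adjusted p of 0.701 (unadjusted p = 0.00649). Wnt8a also varied among the single knockout arrays themselves, where its SD was exceeded by that of only 1.15% of genes. Its level was dim, with a mean over the 6 arrays of 5.67, below the median of all gene means (7.10).

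Wnt3a (1422093_at), the ligand that keeps the tail bud making somite mesoderm and that also marks the dorsal neural tube, was nearly level. It read 7.53, 7.57 and 7.65 in the single knockout and 8.10, 7.54 and 7.63 in the double knockout. Replicate 1 lay above the range of the single knockout, and replicates 2 and 3 lay inside it. The difference was 0.17 (SE 0.15, 95% interval -0.18 to 0.53; limma adjusted p = 0.877), and the exact permutation p was 0.6. Without double knockout replicate 1 it was -0.00095 with an interval of -0.16 to 0.16. That interval leaves room for a change of up to 1.12-fold in RMA values in either direction. With all arrays the interval reaches 1.44-fold higher in the double knockout.

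Wnt3 (1450763_x_at) starts gastrulation and is expressed before and during streak formation. Its only probe set carries the array maker's suffix for sets in which some probes also match other transcripts. It read 3.66, 3.57 and 3.74 in the single knockout and 3.81, 3.78 and 3.75 in the double knockout. The groups did not overlap, but the gap between the highest single and the lowest double knockout array was 0.0066. The difference was 0.12 (SE 0.06, 95% interval -0.031 to 0.27; limma adjusted p = 0.872), or 0.10 without double knockout replicate 1, and the exact permutation p was 0.1.

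Wnt1 (1425377_at), the ligand of the midbrain-hindbrain boundary and the roof plate, had double knockout arrays on both sides of the single knockout. It read 6.67, 7.15 and 7.005 in the single knockout. In the double knockout it read 5.78, 7.28 and 7.57, so replicate 1 was the lowest of the 6 arrays and replicates 2 and 3 were the highest. The difference was -0.062 with all arrays (SE 0.45, 95% interval -1.16 to 1.03; limma adjusted p = 0.984), and the exact permutation p was 1. Without double knockout replicate 1 the sign turned to 0.49 (SE 0.16, 95% interval 0.10 to 0.87), or 1.40-fold in RMA values. The groups then did not overlap, as for 10% of all genes with the double knockout higher. The difference of 0.49 did not pass the test either (limma adjusted p = 0.707, unadjusted p = 0.0212). The sign turned as well without single knockout replicate 2 (0.043) and with arrays weighted by their quality in limma (0.30). Without double knockout replicate 1, 6.67% of all genes had an unadjusted p under 0.05, and Wnt1 and Wnt8a were the 2 of 9 ligands among them.

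Wnt8b, a ligand of the developing forebrain, was low in double knockout replicate 1 on the brightest of its 3 probe sets. That set (1441316_at) read 5.34, 5.83 and 5.43 in the single knockout and 3.55, 5.28 and 5.37 in the double knockout. Double knockout replicate 1 was lower than any other array by 1.73, and replicate 3 lay inside the range of the single knockout. The difference was -0.80 (SE 0.48, 95% interval -1.96 to 0.36; limma adjusted p = 0.872), and -0.21 (SE 0.15) without that array. The remaining probe sets read 4.17 to 4.42 and 3.91 to 4.20 over the 6 arrays and differed by -0.11 and 0.0090, or -0.070 and -0.052 without that array. On the first of these double knockout replicate 1 was again the lowest array, by 0.050, and on the second it was the highest. Both sets lay near the bottom of the RMA scale, so whether the sets disagree on replicate 1 cannot be read from them.

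Wnt2 (1449425_at), a ligand of the allantois and of the mesoderm near the heart and foregut, read 9.29, 9.12 and 8.78 in the single knockout and 8.63, 9.28 and 9.19 in the double knockout. The groups overlapped, with double knockout replicate 1 the lowest of the 6 arrays. The difference was -0.027 (SE 0.20, 95% interval -0.52 to 0.46; limma adjusted p = 0.984), and without that array it was 0.17 (SE 0.15). It also turned without single knockout replicate 1 (0.087) and with array weights (0.16). Wnt2b (1421465_at), which acts with Wnt2 in specifying the lung, read 4.48, 4.60 and 4.48 in the single knockout. It read 4.76, 4.50 and 4.53 in the double knockout, where only replicate 1 left the single knockout range. Its difference was 0.075 (SE 0.087; limma adjusted p = 0.900), or -0.0069 without replicate 1.

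Wnt10a and Wnt10b are known mainly from later organs such as skin, teeth and bone. Wnt10a (1460657_at) read 4.98, 4.91 and 5.05 in the single knockout and 4.996, 4.93 and 4.95 in the double knockout. Wnt10b (1426091_a_at) read 5.62, 5.77 and 5.73 against 5.68, 5.60 and 5.79. Both had overlapping groups, and both were level in double knockout replicate 1 as well, with deviations of 0.031 and -0.020 from the other 5 arrays' mean. Their differences of -0.020 (SE 0.060) and -0.016 (SE 0.073) had 95% intervals of -0.17 to 0.12 and -0.19 to 0.16, and they were -0.039 and -0.012 without double knockout replicate 1. Both genes were dim, and RMA compresses differences near background, so these intervals apply to the RMA values and not to a fold of mRNA. The same holds for Wnt2b, Wnt3, Wnt8a and Wnt8b. Wnt1, with a mean of 6.91, also lay below the median of all gene means (7.10), but close to it.

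**Figure D2:**
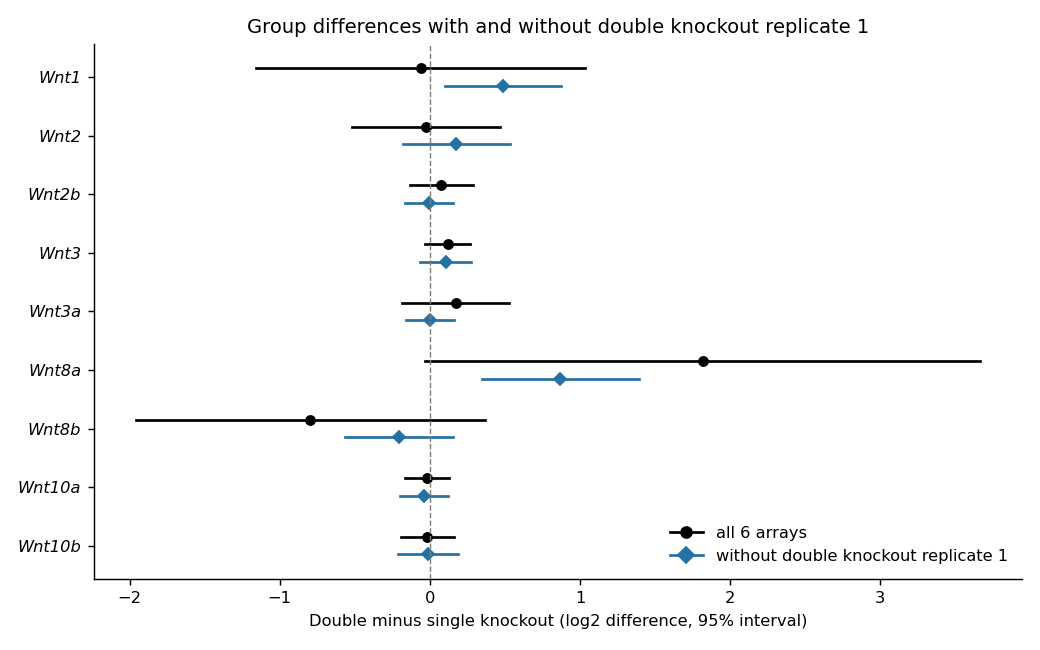
Double minus single knockout difference (log2) of each ligand gene with its 95% interval from limma, over all 6 arrays (black circles) and without double knockout replicate 1 (blue diamonds). Only Wnt8a and Wnt1 have an interval that leaves out 0, both without replicate 1, and neither passed after adjustment over all genes.

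Double knockout replicate 1 was more than 1 log2 unit off the other 5 arrays' mean for 3 of 9 ligands, where 2.63% of all genes did so. Wnt8a was 3.36 above that mean, and Wnt1 and Wnt8b deviated from it by -1.36 and -1.89. Wnt3a and Wnt2 deviated by 0.52 and -0.50, and the other 4 by 0.24 or less. Tissue markers were off in the same array. Visceral endoderm genes, which serve yolk sac nutrition, were over 1 log2 unit higher there for 11 of 11 members, with a mean level of 11.54 against 8.71 to 9.11 in the other 5 arrays. Primitive red cell genes were over 1 log2 unit lower for 4 of 7, with a mean level of 5.48 against 9.17 to 9.66 in the single knockout and 9.60 and 7.32 in double knockout replicates 2 and 3. Genes of maternal decidua were over 1 log2 unit higher for 3 of 6 and lower for 1, with a mean level of 6.66 against 5.65 to 6.21. Placenta and trophoblast genes were over 1 log2 unit higher for 3 of 8, with a mean level of 6.23 against 4.78 to 4.96. The median gene of that list was only 0.065 above the single knockout mean in this array, so the rise was not list-wide. No marker was at 0, since RMA gives every probe set a value. The part of these tissues in the ligand values was not tested.

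Marker lists of the ligands' own tissues were compared by the same values. The primitive streak and tail bud list, the region of Wnt3, Wnt3a and Wnt8a, deviated from the single knockout by medians of 0.35, -0.090 and 0.020 in double knockout replicates 1 to 3. Wnt8a deviated by 3.71, 0.67 and 1.07 in these arrays. The epiblast list, which holds Pou5f1 and Nanog, deviated by 0.45, 0.21 and 0.21. Its mean level was 5.15 to 5.28 in the single knockout and 5.55 to 6.41 in the double knockout. By value 8 of 8 of its genes were higher in the double knockout, where 8407 of all 18193 genes were. All of them had means over the 6 arrays below the median of all gene means (7.10), from Zfp42 at 3.89 to Pou5f1 at 7.09. The limit given for dim ligands therefore holds for most of this list too. Groups did not overlap for 2 of the 8, where 4.85% of all genes did so with the double knockout higher. Tdgf1 was lower in replicate 1, at -0.79. The midbrain and isthmus list, the region of Wnt1, deviated by -0.44, -0.12 and 0.19, against -1.16, 0.34 and 0.63 for Wnt1 itself. With all arrays 7 of its genes were lower and 2 higher by value. Groups did not overlap for 2, both lower, where 6.6% of all genes did so. En2 was lower in each double knockout array, by -1.94, -1.11 and -1.28. The roof plate and dorsal neural tube list deviated by 0.31, -0.061 and -0.053, but its genes did not move together. By value 6 were higher and 4 lower in the double knockout, and Zic1 deviated by -4.57, -1.23 and -1.56. Wnt8a was above the single knockout in double knockout replicates 2 and 3, in which the streak list median was within 0.1 of it. Single streak genes ranged in replicate 2 from -0.57 (Mixl1) to 0.16 (Eomes). By median, the epiblast list was the 1 list of these 4 that lay above the single knockout in each double knockout array. How Wnt8a relates to these tissues was not tested.

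**Figure D3:**
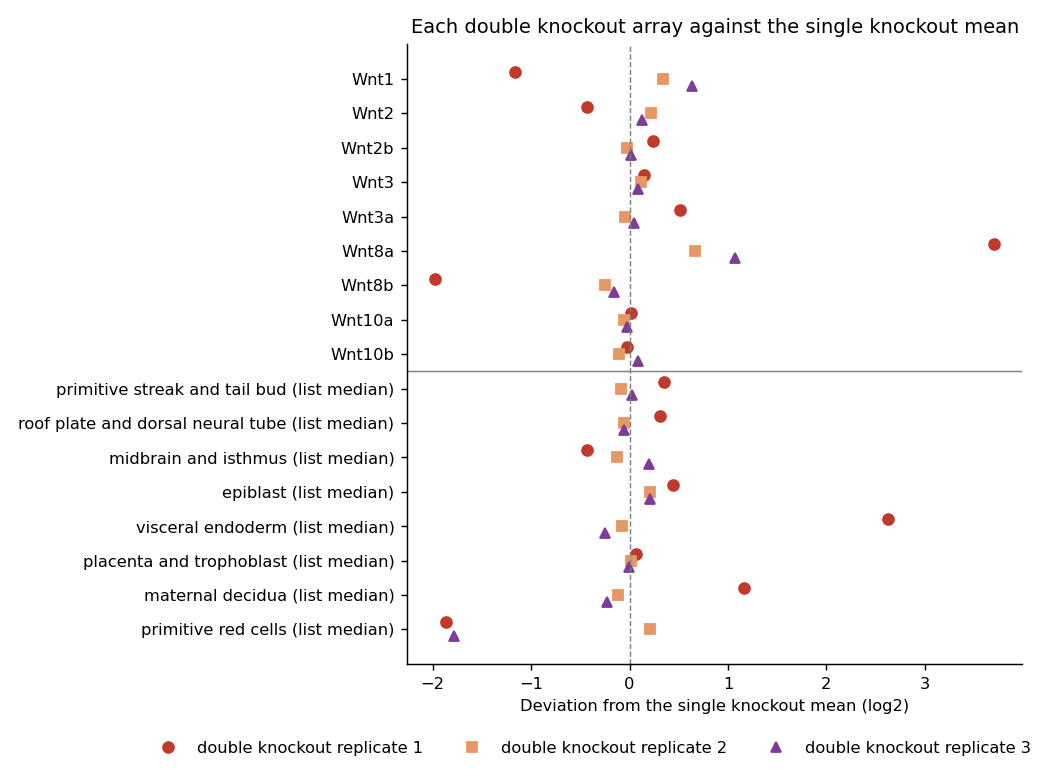
Deviation of each double knockout array from the single knockout mean (log2) for the 9 ligand genes, above the line, and for the median gene of 8 tissue marker lists, below it. Double knockout replicate 1 (circles) lies over 1 log2 unit out for Wnt8a, Wnt8b, Wnt1 and the visceral endoderm, maternal decidua and red cell lists, and the red cell list is also low in replicate 3.

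The genes with profiles nearest to Wnt8a, Wnt1 and Wnt3a were found by the root mean square distance over the 6 arrays, each gene centred on its own mean. Nearest to Wnt8a were the pluripotency factor gene Nanog at a distance of 0.36 log2 units, Pou5f1, which encodes the pluripotency factor Oct4, at 0.44, and Trap1a, a tumour antigen gene, at 0.44. Wnt8a itself varied around its mean by 1.33 in the same measure. Without double knockout replicate 1 the group differences were 0.31 for Nanog, 1.09 for Pou5f1 and 0.39 for Trap1a, against 0.87 for Wnt8a. None of these genes passed the test with all arrays (limma adjusted p = 0.872 for each).

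Nearest to Wnt1 were Elfn1, Scg5 and the cartilage and notochord collagen gene Col2a1, at distances of 0.16, 0.17 and 0.18 against a spread of 0.58 for Wnt1. All 3 were lowest in double knockout replicate 1. Without it they differed between groups by 0.22, 0.16 and 0.22, less than the 0.49 of Wnt1. For Wnt3a the nearest genes were Lhx1os, Stard10 and Selenov, at 0.032 to 0.036, but 376 genes lay within 0.1 of this nearly level profile, so the order among them carries little. The 6 arrays behind these distances include the one that stands apart.

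**Figure D4:**
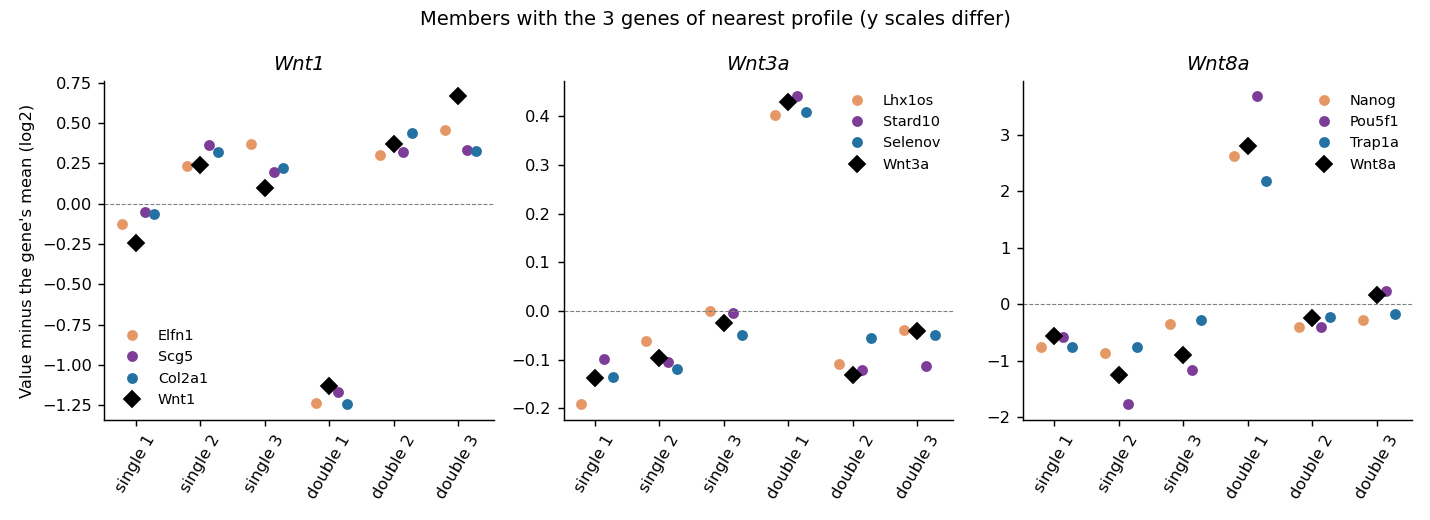
Value minus the gene's own mean over the 6 arrays (log2) for Wnt1, Wnt3a and Wnt8a (black diamonds) and the 3 genes with the nearest profile to each (coloured circles), by array. Double knockout replicate 1 is low for the Wnt1 set and high for the other sets; the vertical scales differ.

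Several ligand genes sit beside another Wnt gene on the chromosome, with 0 protein-coding genes between them in the RefSeq annotation of GRCm38.p6. Wnt1 and Wnt10b are such neighbours on chromosome 15, and they had differences of -0.062 and -0.016 (0.49 and -0.012 without double knockout replicate 1). Wnt3 and Wnt9b on chromosome 11 differed by 0.12 and 0.19 (SE 0.06 and 0.10), or 0.10 and 0.20 without that array. Wnt3a and Wnt9a, also on chromosome 11, differed by 0.17 and -0.034, or -0.00095 and -0.0081 without it. Wnt10a and Wnt6 on chromosome 1 had values of -0.020 and -0.41 (SE 0.06 and 0.08), or -0.039 and -0.40. Wnt8a is on chromosome 18, Wnt8b on chromosome 19 and Wnt2b on chromosome 3, each with no other Wnt gene there, and Wnt2 on chromosome 6 has 9 genes between it and Wnt16.

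The other Wnt ligands, a mixed group that includes the cell polarity ligands Wnt5a and Wnt11, were lower by value for 8 of 10 genes, with a median of -0.16 against -0.016 for the class itself. Wnt6 read 7.77, 7.74 and 7.93 in the single knockout and 7.37, 7.31 and 7.52 in the double knockout. Wnt5b read 7.94, 7.90 and 7.96 against 7.50, 7.43 and 7.69. Both had groups that did not overlap, with differences of -0.41 (SE 0.08) and -0.39 (SE 0.08), and neither passed (limma adjusted p = 0.872 for each). Both also kept this size without double knockout replicate 1, at -0.40 and -0.37. Of these 10 genes, 4 had non-overlapping groups with the double knockout lower, where 6.6% of all genes did. Besides Wnt5b and Wnt6 these were Wnt4 and Wnt7b, named after their values were seen.

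Genes that lipidate, release and spread Wnt proteins were higher by value for 7 of 10, with a median of 0.075. Wls, the carrier that brings lipidated Wnts to the cell surface, read 10.58, 10.51 and 10.50 in the single knockout and 10.85, 10.71 and 10.68 in the double knockout. The groups did not overlap, for this 1 gene of the 10, where 4.85% of all genes did so with the double knockout higher. The difference of 0.22 (SE 0.07) did not pass (limma adjusted p = 0.872). Without double knockout replicate 1 it was 0.17. Gpc4, a cell-surface glypican, differed by -0.19 (SE 0.09), or -0.12 without it. The list median was -0.0022 without that array.

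The remaining Frizzled genes and Lrp5 and Lrp6 were lower by value for 7 of 10, with a median of -0.13, which was 0.013 without double knockout replicate 1. Fzd10 read 8.24, 8.23 and 8.22 against 8.19, 7.95 and 8.03, a difference of -0.18 (SE 0.07), or -0.24 without that array. It was the 1 gene of the 10 with non-overlapping groups, where 6.6% of all genes did so with the double knockout lower. Fzd8 differed by -0.21 (SE 0.11), which came to -0.094 without it. Genes of the beta-catenin destruction complex and its nuclear partners differed little, with all 15 differences between -0.11 and 0.13. The Dishevelled genes Dvl2 and Dvl3, whose products relay the Frizzled signal, differed by -0.094 (SE 0.055) and 0.13 (SE 0.08), or -0.072 and 0.10 without that array. Dvl2 was the 1 gene of these 15 with non-overlapping groups, lower in the double knockout.

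Target and feedback genes of beta-catenin were lower by value for 12 of 17, with a median of -0.082, where 9786 of all 18193 genes were lower. Without double knockout replicate 1 this held for 15 of 17, with a median of -0.18, where 9689 of all genes were lower. In that array the list as a whole was not lower. Its median deviation from the single knockout mean was 0.013, against -0.21 and -0.14 in replicates 2 and 3. Cdx1 and Cdx2 stood out most there, at 2.00 and 1.05 above the other 5 arrays' mean. The targets Axin2 and Sp5 differed between groups by -0.013 and 0.21, or -0.077 and -0.0093 without that array. Ccnd1, a cell cycle gene, read 10.83, 10.84 and 10.88 in the single knockout and 10.60, 10.42 and 10.59 in the double knockout. Nkd2, a feedback inhibitor of the pathway, read 6.75, 6.80 and 6.61 against 6.43, 6.38 and 6.50. Their groups did not overlap, with differences of -0.31 (SE 0.07) and -0.28 (SE 0.07), or -0.34 and -0.28 without double knockout replicate 1. Neither passed (limma adjusted p = 0.872 for each). With Nkd1, at -0.20 (SE 0.08), 3 of the 17 had non-overlapping groups with the double knockout lower, where 6.6% of all genes did. Over all 5 of these pathway lists, 0 of 62 measured genes passed in either direction. At an unadjusted limma p under 0.05 there were 7, or 11.3% of the 62, where 4.96% of all genes had such a p. The beta-catenin class itself had 0 of 9 with all arrays.

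**Figure D5:**
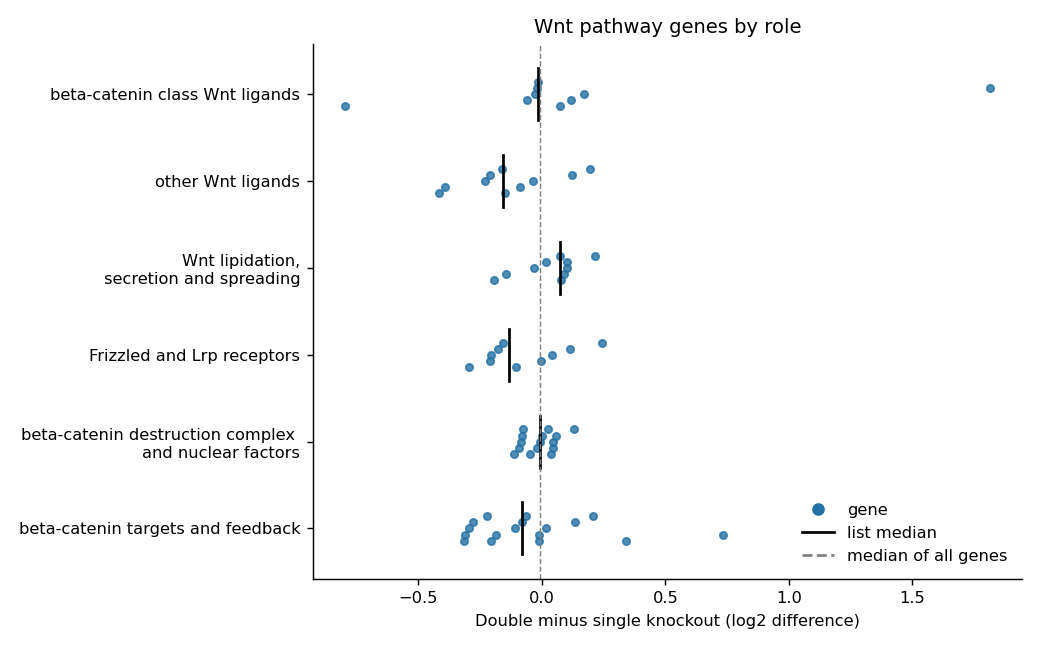
Double minus single knockout difference (log2) of each measured gene in 6 lists of Wnt pathway genes (points), with the list median (black bar) and the median of all genes (dashed line). The beta-catenin class has both the highest and the lowest gene, Wnt8a at 1.82 and Wnt8b at -0.80, with a median near that of all genes.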

How the data were processed

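The table the authors deposited holds log2 values of 45101 probe sets. Per the submitters' processing notes they come from RMA (robust multi-array average), whose version the sources used here do not give. RMA corrects background, equalises array distributions and summarises probes on the log2 scale, which compresses differences of dim genes. That the scale is log2 was read from the values, which ran from 2.64 to 15.17 with array medians of 5.79 to 5.82. Probe sets were named through the platform annotation, and 34945 had 1 symbol. Controls (64), probe sets with several symbols (932) and those with none listed (9160) were left out.

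Groups were compared with two-sided moderated tests in limma (version 3.58.1, R 4.3.3). P-values were adjusted over 18193 genes by the Benjamini-Hochberg method, with a threshold of 0.05. Intervals are limma's 95% intervals. Single genes also got an exact permutation test. Members and gene lists were chosen with earlier results of these data known, so lists are described by counts and medians only. From each pathway list the 2 genes with the smallest unadjusted p are named where none passed. Other list genes were named after their values were seen. Across all genes same-numbered arrays deviated together little or not at all (correlations of 0.094, -0.037 and -0.13), so arrays were not paired. This does not settle pairing for single genes. List genes without a single-symbol probe set were not used here. Alternatives changed the moderation, scaling, probe set choice, array weights, dim-gene filter, threshold and replicate block, and left out each array in turn. The code was tested on simulated data. The number of arrays limits the precision.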

Additional observations from a re-analysis of the deposited data

How the results depend on the processing

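Wnt3, Wnt8a and Wnt8b kept their direction in each of the 15 alternatives run on them, with ranges of 0.078 to 0.16, 0.87 to 2.39 and -1.11 to -0.21. Several alternatives cannot change a difference. They are the replicate block over all arrays, the moderation, the threshold and the test of all probe sets. The mean of a gene's probe sets cannot change it either where the gene has 1 probe set. The other ligands turned in 1 to 4 alternatives. Leaving out 1 array at a time gave -0.41 to 0.49 for Wnt1, -0.17 to 0.17 for Wnt2, -0.0069 to 0.12 for Wnt2b, -0.00095 to 0.28 for Wnt3a, -0.057 to 0.016 for Wnt10a, -0.066 to 0.029 for Wnt10b and -0.018 to 0.054 for the median of the class. Array weights turned Wnt1 to 0.30, Wnt2 to 0.16 and the median to 0.038, and the median was 0.072 with dim genes left out, which leaves only Wnt2 and Wnt3a. The cause of these turns was not tested. The count of genes called, 1 with all arrays, was 0 to 1 when an array was left out (0 without double knockout replicate 3, and 0 without each single knockout array in turn) and 0 with the mean of a gene's probe sets, where 881 genes had an unadjusted p under 0.05. With the replicate number as a block 1 gene was called. The Wnt8a difference stays at 1.82 there by construction, since each number occurs once per group. Its SE was then 0.51, against 0.77 without the block (limma adjusted p = 0.855, unadjusted p = 0.0174). The SE also fell for Wnt1 (0.45 to 0.29), Wnt8b (0.48 to 0.34) and slightly for Wnt3a. It rose for Wnt2, Wnt2b, Wnt3, Wnt10a and Wnt10b. Not every array correlated best with its own number. With the block and both replicate 1 arrays left out, an alternative chosen after seeing the data, 12 genes were called, and 1 of them was a ligand of the class, Wnt8a at 1.04 (limma adjusted p = 0.0231). Its adjusted p was 0.0231 to 1.00 over all its alternatives. Wnt1, Wnt2, Wnt2b and Wnt3a then read 0.35, 0.29, -0.028 and -0.026. That fit rests on 2 arrays per group with a single residual degree of freedom, and the numbers were not shown to pair the arrays. Dim signal limits 7 of the 9 ligands, whose means lie below the median gene.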
